A study of Mus musculus with 8 samples.

Results

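The transcripts described here encode the liver's own heme pathway: 7 enzymes that build heme (Alas1, Alad, Uros, Urod, Cpox, Ppox and Fech), heme oxygenase 1 (Hmox1), which breaks it down, and Clpx, the mitochondrial unfoldase that acts on the ALAS1 protein. The 9 genes were taken by symbol. All 9 were listed in each of the 8 libraries with no failed estimate, and all 9 were among the 11316 genes tested of 48432 listed. Liver RNA came from wild-type C57BL/6 mice exposed for 30 weeks, 2 libraries a group. The groups were LD-FA (light/dark cycle, filtered air), LD-PM2.5 (light/dark cycle, fine particulate matter), LL-FA (constant light, filtered air) and LL-PM2.5 (constant light, fine particulate matter). The sources used here do not give age, sex, the hour of collection or whether the libraries of a group came from separate animals. The p-values rest on the spread between libraries, which may be technical.

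Heme is the iron-holding ring of cytochrome P450 enzymes, catalase and respiratory cytochromes, and hepatocytes make large amounts of it. ALAS1 joins glycine to succinyl-CoA in the mitochondrion to give aminolevulinate and sets the pace of the pathway. ALAD, UROS and UROD act on intermediates in the cytosol, and CPOX, PPOX and ferrochelatase (FECH) finish the ring in the mitochondrion. Heme represses Alas1 expression and promotes the removal of the ALAS1 protein by the protease that CLPX belongs to, and Alas1 is known to vary over the day in mouse liver.

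Promoters are shown for the 2 members whose levels spread most over the libraries, Alas1 and Clpx, and for those members whose window held the E-box CACGTG, the site bound by CLOCK and BMAL1. RefSeq windows on GRCm38.p6, from 250 bases before to 50 bases after an annotated start, were used for 7 members, in 10 windows, some of them overlapping. No window was used for Fech or Hmox1. Both strands were searched. Capitals in the first 2 sequences mark letters of the site of nuclear respiratory factor 1 (NRF1), a regulator of mitochondrial genes. In an Alas1 window on the minus strand (chr9:106247681-106247980) this is a palindrome made of GCATGCGC with GC before it, and in the Clpx window on the plus strand (chr9:65294010-65294309) it is GCATGCGC alone.
Alas1: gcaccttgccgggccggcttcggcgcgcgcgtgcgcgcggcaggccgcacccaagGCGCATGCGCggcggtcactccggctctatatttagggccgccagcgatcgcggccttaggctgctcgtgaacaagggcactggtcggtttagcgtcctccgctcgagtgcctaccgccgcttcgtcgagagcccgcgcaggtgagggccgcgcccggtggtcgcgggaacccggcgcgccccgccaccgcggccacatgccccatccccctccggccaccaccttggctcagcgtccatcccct
Clpx: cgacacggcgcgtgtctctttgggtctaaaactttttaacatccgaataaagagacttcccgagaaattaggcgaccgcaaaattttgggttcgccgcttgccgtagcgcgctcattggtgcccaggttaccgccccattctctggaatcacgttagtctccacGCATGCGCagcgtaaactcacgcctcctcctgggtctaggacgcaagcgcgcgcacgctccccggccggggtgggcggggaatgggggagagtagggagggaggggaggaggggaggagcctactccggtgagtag
The longer palindrome was present in 0.971% of 32851 windows of the same length and the shorter site, on either strand, in 2.71%. Neither window held CACGTG, which was present in 7.15% of windows. It was found in windows of Alad (minus strand, chr4:62520151-62520180 and chr4:62519920-62519949), Urod (minus strand, chr4:116994445-116994474) and Uros (minus strand, chr7:133709516-133709545), shown as stretches of 30 bases with the E-box in capitals.
Alad, upstream start: gctccgaatgccCACGTGgaccccctcggg
Alad, downstream start: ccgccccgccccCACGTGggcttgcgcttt
Urod: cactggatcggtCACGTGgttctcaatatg
Uros: CACGTGtgctttctcacctcgtccacgatt
The windows of Cpox and Ppox held neither the E-box nor an NRF1 site. Such matches describe letters only and were not measured as binding.

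Each library held 22214720 to 31819109 estimated fragments, and the members 145 to 13305 fragments each. The hepatocyte genes Apoa1 and Ttr stood at 5580 to 11157 and 4903 to 7057 FPKM (fragments scaled to transcript length and library depth), while Alb could not be used because the deposited table marks its estimate as not OK. Transcripts of other tissues were present: the 9 pancreatic acinar markers together reached 3574 FPKM for LD-FA replicate 1, 347 for LL-PM2.5 replicate 2, 127 in LD-PM2.5 replicate 1 and 17.8 to 34.7 elsewhere, and the 7 muscle markers 309 FPKM for LD-FA replicate 1, 611 in LL-FA replicate 1, 35.1 in LD-FA replicate 2 and 0.563 to 1.59 elsewhere. The fits were therefore repeated with replicate 1 of both filtered air groups left out.

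Per length of transcript, Alad was the most abundant member, with a mean of 104 FPKM over the 8 libraries, ahead of Alas1 at 96.3, Clpx at 70.8, Fech at 63.7, Urod at 53.8 and Cpox at 49.9. Each of these neighbours in the order overlapped in range with the next. A step followed to Hmox1 at 16.4 FPKM, whose range did not meet that of Cpox, and to Uros at 7.56, which lay below Hmox1 in 8 of 8 libraries. Ppox was lowest at 4.6 FPKM, under Uros in 8 of 8 libraries although their ranges overlapped. The members differed more in how much they varied. The ratio of the highest to the lowest library was 6.32 for Alas1, larger than in 96.7% of tested genes, 3.71 for Clpx, larger than in 93.9%, and 2.82 for Hmox1, larger than in 90.1%. The median over all tested genes was 1.63. Urod at 1.31, Fech at 1.41, Alad at 1.44 and Ppox at 1.49 lay under that median, and Uros at 1.72 and Cpox at 2.05 above it.

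**Figure D1:**
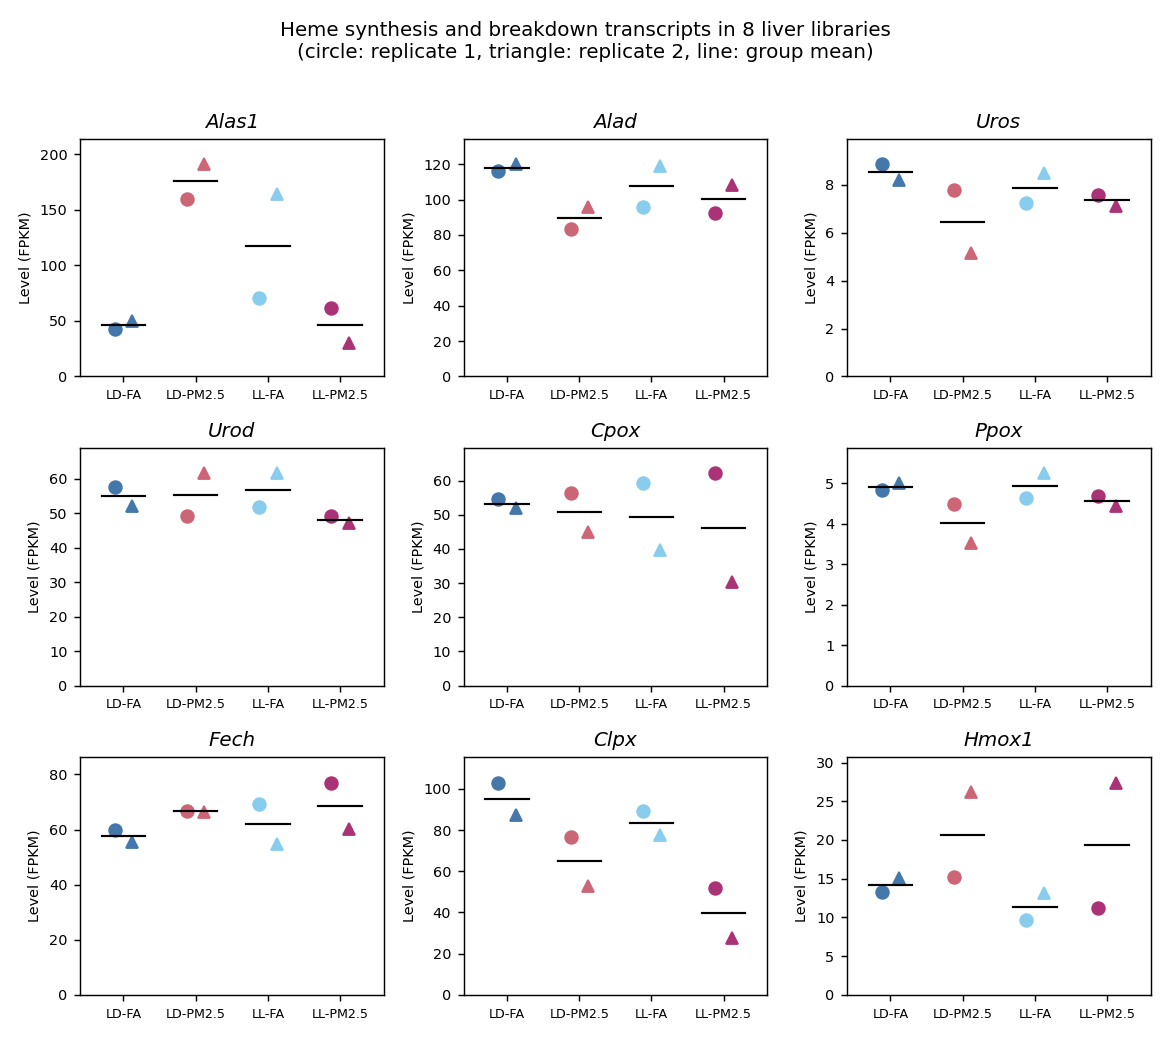
Level of each member in FPKM (vertical axes, each starting at 0) in the 4 groups; circles are replicate 1, triangles replicate 2 and lines group means. Alas1 was at 160 and 191 FPKM in LD-PM2.5 and at 30.2 to 62.0 in LD-FA and LL-PM2.5, and all 4 PM2.5 libraries lay below all 4 filtered air libraries for Clpx.

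Alas1 (ENSMUSG00000032786.14, chromosome 9, 106233455 to 106248654, GRCm38/mm10, minus strand) had the highest levels in LD-PM2.5, at 160 and 191 FPKM, against 42.5 and 49.9 in LD-FA. In constant light the order was the opposite, with 70.4 and 164 FPKM for LL-FA against 62.0 and 30.2 for LL-PM2.5. The LD-FA and LL-PM2.5 ranges overlapped, the LL-FA libraries lay above both, and LL-FA replicate 2 reached the level of LD-PM2.5. For PM2.5 under the light/dark cycle the log2 fold change was 1.93 ± 0.43 (standard error), a 3.8-fold higher level, with an unadjusted p of 0.00251 and an adjusted p of 0.416 in edgeR's quasi-likelihood test over all genes. For PM2.5 in constant light it was -1.33 ± 0.42 (unadjusted p = 0.0152, edgeR adjusted p = 0.989). The difference between these effects, LL minus LD, was -3.26 ± 0.61 (edgeR unadjusted p = 0.000833, adjusted p = 0.843). It ranked 9 by p among all 11316 genes and did not pass after adjustment. In 1.48% of tested genes both PM2.5 libraries lay above both filtered air libraries in the light/dark cycle and below them in constant light, as for Alas1. Read the other way, constant light went with a higher Alas1 level in filtered air, at 1.36 ± 0.42, and a lower one in PM2.5, at -1.90 ± 0.43. These pairs share libraries with the ones above. Averaged over light, the PM2.5 effect was 0.30 ± 0.30, and averaged over air that of constant light was -0.27 ± 0.30.

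The Alas1 contrast in the light/dark cycle stayed between 1.81 and 2.05 with each library left out. In constant light it was -0.64 without LL-FA replicate 2, -0.92 and -1.92 without replicate 2 and replicate 1 of LL-PM2.5, and constant light in filtered air went from 1.36 to 0.67 without LL-FA replicate 2. With replicate 1 of both filtered air groups left out, the libraries with most muscle transcripts, Alas1 stood at 1.81 ± 0.45 for PM2.5 under the light/dark cycle and -1.80 ± 0.40 in constant light. DESeq2, fitted to the same fragments, called Alas1 in all 4 pairwise comparisons, with adjusted p-values of 3.3e-05 for PM2.5 under the light/dark cycle, 0.0328 for PM2.5 in constant light, 0.0313 for constant light in filtered air and 4.43e-05 for constant light in PM2.5, and for the interaction (DESeq2 adjusted p = 2.74e-07). It called 0.292% of all tested genes for the interaction. EdgeR with no filter on low values also called Alas1 in these 5 comparisons, with adjusted p-values of 2.54e-09 and 1.52e-05 for PM2.5 under the light/dark cycle and in constant light, 2.37e-05 and 2.97e-09 for constant light in filtered air and in PM2.5, and 9.01e-12 for the interaction. The Alas1 call therefore depends on the test and on the filter. Red cell transcripts were ordered the other way: the 8 erythroid markers together reached 227 and 148 FPKM for LD-FA, 107 and 115 for LD-PM2.5, 126 and 155 for LL-FA and 206 and 221 for LL-PM2.5. All 4 globin genes among them were lower with PM2.5 in the light/dark cycle and higher in constant light without overlap, while the red cell membrane genes Slc4a1 and Epb42 reached at most 0.0191 FPKM. Their part in the Alas1 levels was not tested.

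Transcripts of the enzymes after ALAS1 varied less. The 6 members Alad, Uros, Urod, Cpox, Ppox and Fech summed to 257 to 302 FPKM in every library, while the ratio of Alas1 to that sum was 0.141 and 0.17 for LD-FA, 0.597 and 0.688 for LD-PM2.5, 0.244 and 0.57 for LL-FA and 0.212 and 0.117 for LL-PM2.5. Alad (ENSMUSG00000028393.10, chromosome 4, 62509169 to 62519918), which condenses the product of ALAS1, stood at 116 and 120 FPKM for LD-FA and at 83.3 and 96.0 in LD-PM2.5, a log2 fold change of -0.39 ± 0.11 (unadjusted p = 0.00931, edgeR adjusted p = 0.422). In constant light it overlapped in FPKM, with 96.0 and 119 for LL-FA against 92.5 and 108 for LL-PM2.5. In fragments scaled to library depth alone (CPM) it did not, with 132 and 137 for LL-FA against 121 and 126 for LL-PM2.5. By CPM every PM2.5 library lay below every filtered air library for Alad, a separation whose share over all genes was not counted. The log2 fold change of Alad for PM2.5 in constant light was -0.12 ± 0.11 (edgeR unadjusted p = 0.316), so a lower level there was not shown. Averaged over light, the PM2.5 effect on Alad was -0.26 ± 0.08 (unadjusted p = 0.0134, edgeR adjusted p = 0.421). The transcript ratio of Alas1 to Alad ranged from 0.279 in LL-PM2.5 replicate 2 to 1.99 in LD-PM2.5 replicate 2.

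Uros (ENSMUSG00000030979.13, chromosome 7, 133686243 to 133710072), which closes the ring, and Ppox (ENSMUSG00000062729.11, chromosome 1, 171275990 to 171281186), which oxidises it, were low in the same library, LD-PM2.5 replicate 2. Uros stood at 8.86 and 8.22 FPKM for LD-FA against 7.77 and 5.14 for LD-PM2.5 (-0.42 ± 0.20), and at 7.25, 8.49, 7.59 and 7.12 in the LL-FA and LL-PM2.5 libraries. Ppox read 4.83 and 5.0 FPKM with filtered air and 4.49 and 3.52 with PM2.5 in the light/dark cycle (-0.30 ± 0.17), and 4.64, 5.24, 4.69 and 4.43 in the LL-FA and LL-PM2.5 libraries. Without LD-PM2.5 replicate 2 the fold changes were -0.17 for Uros and -0.10 for Ppox. Uros overlaps Bccip (at most 53.3 FPKM) and Ppox overlaps B4galt3 (at most 4.57 FPKM), each on the opposite strand, and no source used here gives the strand setting of the counting, so reads of these pairs may be mixed.

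Urod (ENSMUSG00000028684.14, chromosome 4, 116989965 to 116994413), which trims the side chains of the ring, had the narrowest range of the members, 47.0 to 61.5 FPKM. Both LL-PM2.5 libraries, at 49.2 and 47.0 FPKM, lay below both LL-FA libraries, at 51.9 and 61.5 (-0.24 ± 0.14, unadjusted p = 0.143). In the light/dark cycle the LD-FA libraries read 57.6 and 52.2 and the LD-PM2.5 libraries 49.2 and 61.5, and constant light within PM2.5 gave -0.16 ± 0.14. Cpox (ENSMUSG00000022742.5, chromosome 16, 58670292 to 58717636), the coproporphyrinogen oxidase, differed within groups rather than between them. It was at 62.1 and 30.3 FPKM for LL-PM2.5, 59.2 and 39.7 for LL-FA, 56.5 and 44.9 for LD-PM2.5 and 54.5 and 52.1 for LD-FA, and its groups overlapped in all 4 pairwise comparisons. The differences within groups depend on the scaling. In CPM Cpox read 218 and 141 for LL-PM2.5, and 199 and 217 for LD-FA, the reverse of the FPKM order there. Fech (ENSMUSG00000024588.8, chromosome 18, 64452914 to 64490251), which inserts the iron, stood at 66.9 and 66.5 FPKM in LD-PM2.5 against 59.7 and 55.4 in LD-FA (0.19 ± 0.13, unadjusted p = 0.178), and at 69.2, 54.7, 77.0 and 60.3 in the LL-FA and LL-PM2.5 libraries.

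Clpx (ENSMUSG00000015357.10, chromosome 9, 65294260 to 65330658, plus strand) was lower with PM2.5 in both light regimes. It stood at 103 and 87.2 FPKM for LD-FA, 76.8 and 52.7 for LD-PM2.5, 89.4 and 77.7 for LL-FA and 51.9 and 27.8 for LL-PM2.5. All 4 PM2.5 libraries were below all 4 filtered air libraries, a full separation on the lower side that 1.81% of tested genes showed. The log2 fold change was -0.63 ± 0.21 in the light/dark cycle (unadjusted p = 0.0181, edgeR adjusted p = 0.438), -1.07 ± 0.21 in constant light (unadjusted p = 0.00113, edgeR adjusted p = 0.83), and -0.85 ± 0.15 averaged over light (unadjusted p = 0.000549, edgeR adjusted p = 0.325). The difference between the light regimes was -0.45 ± 0.29 (unadjusted p = 0.169), so a larger change in constant light was not shown. Leaving out each library gave -1.01 to -0.72 for the average. Constant light against the light/dark cycle was -0.67 ± 0.21 within PM2.5 (unadjusted p = 0.0136) and -0.45 ± 0.15 averaged over air (unadjusted p = 0.0177); within PM2.5 it was -0.40 without LL-PM2.5 replicate 2. DESeq2 called Clpx for PM2.5 in constant light (DESeq2 adjusted p = 0.000555) and averaged over light (2.54e-05), and edgeR with no filter called it in the same comparisons (adjusted p = 5.66e-05 and 3.2e-06). The fold changes of Alas1 and Clpx for PM2.5 thus had opposite signs in the light/dark cycle and the same sign in constant light, and neither gene passed the adjusted threshold of edgeR with the filter.

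**Figure D2:**
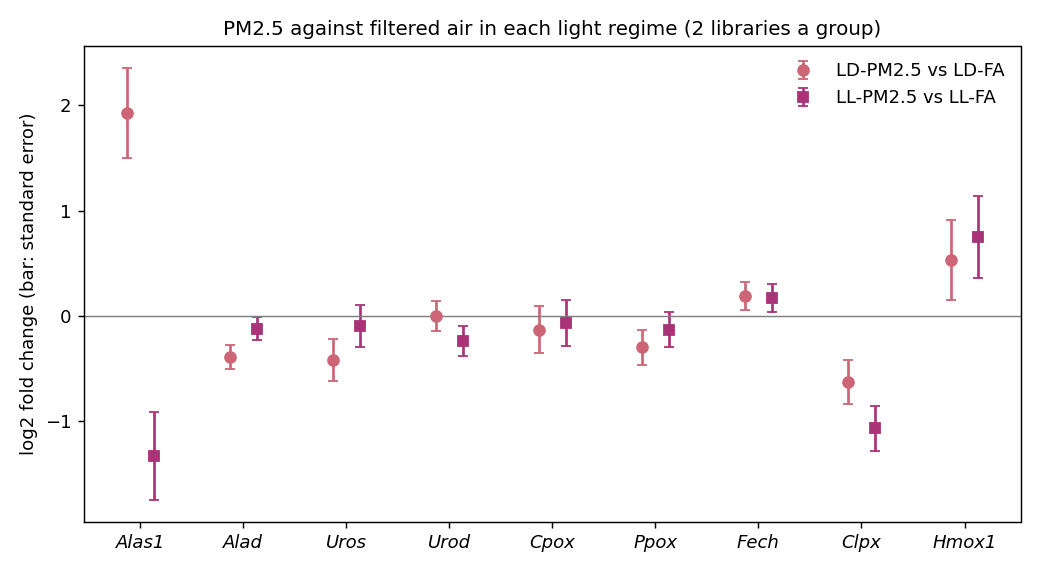
Log2 fold change (vertical axis) of each member for PM2.5 against filtered air, in the light/dark cycle (circles) and in constant light (squares); bars are standard errors. Alas1 lies at 1.93 and -1.33 on opposite sides of 0, Clpx at -0.63 and -1.07 on the same side, and the other 6 synthesis enzymes between -0.42 and 0.19.

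Hmox1 (ENSMUSG00000005413.7, chromosome 8, 75093621 to 75100589), the inducible enzyme that opens heme to biliverdin, iron and carbon monoxide, was highest in 1 library of each PM2.5 group. It read 15.2 and 26.2 FPKM for LD-PM2.5 and 11.2 and 27.4 in LL-PM2.5, against 13.3 and 15.1 for LD-FA and 9.7 and 13.1 for LL-FA. The groups did not overlap in the light/dark cycle, by a margin of 15.1 to 15.2 FPKM, and overlapped in constant light. The log2 fold change for PM2.5 was 0.53 ± 0.38 in the light/dark cycle (edgeR adjusted p = 0.596), 0.75 ± 0.39 in constant light (edgeR adjusted p = 0.989) and 0.64 ± 0.27 averaged over light (unadjusted p = 0.0491, edgeR adjusted p = 0.495). It rested on the replicate 2 libraries: without LD-PM2.5 replicate 2 the value in the light/dark cycle was 0.17, and without LL-PM2.5 replicate 2 that in constant light was 0.01. Constant light gave -0.28 ± 0.38 in filtered air, with both LL-FA libraries below both LD-FA libraries, and -0.07 ± 0.38 in PM2.5. Averaged over air it gave -0.18 ± 0.27, and the interaction was 0.22 ± 0.54. Hmox1 is also made by macrophages, whose 9 markers summed to 144 and 151 FPKM in the 2 libraries of highest Hmox1, within the 123 to 182 FPKM of the other 6. Cd5l and Clec4f were the most abundant of these markers and weigh most in the sums. The part of macrophages in the Hmox1 levels was not tested. Fewer cells of a type and less RNA per cell cannot be told apart in such bulk samples.

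**Figure D3:**
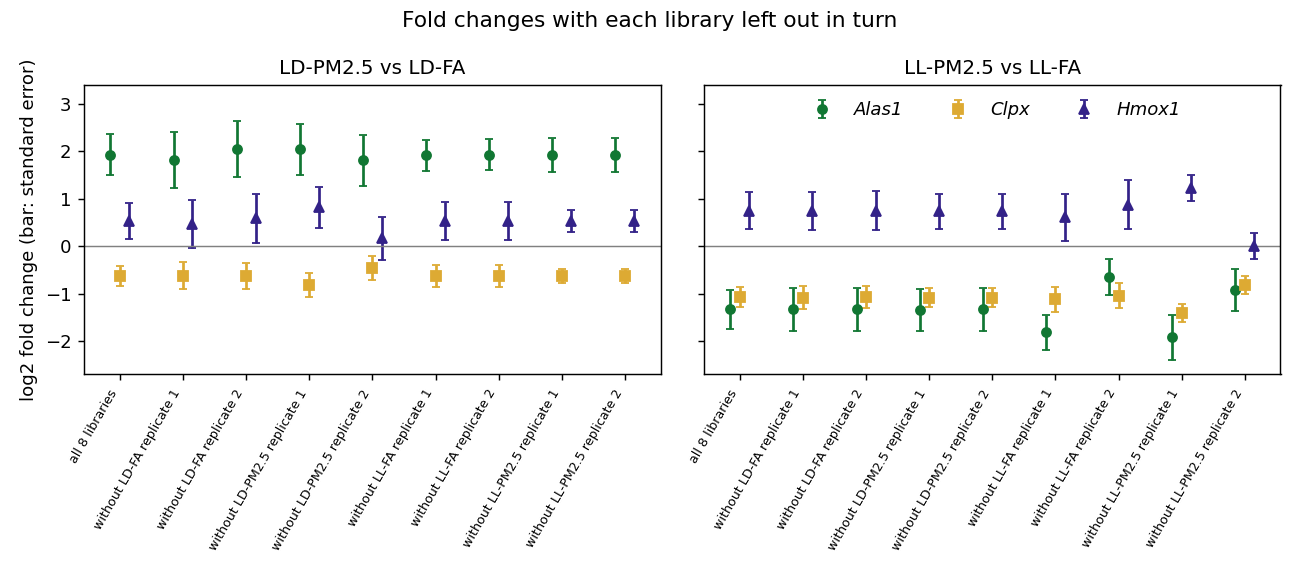
Log2 fold change (vertical axis, bars are standard errors) of Alas1, Clpx and Hmox1 for PM2.5 against filtered air in the light/dark cycle (left) and constant light (right), with all 8 libraries and with each library left out. Alas1 stays between 1.81 and 2.05 on the left and between -1.92 and -0.64 on the right, and Hmox1 is at 0.17 and 0.01 without replicate 2 of the PM2.5 group.

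Counted together, 0 of the 9 members passed the adjusted threshold of 0.05 by edgeR with the filter in any of the 7 comparisons, where 0.0177% of all tested genes passed for PM2.5 averaged over light and 0.0% in the other 6. At an unadjusted p under 0.05 there were 3 of 9 for PM2.5 under the light/dark cycle (Alas1, Alad and Clpx), where 11% of all genes were under it. There were 2 of 9 for PM2.5 in constant light (Alas1 and Clpx, against 4.83% of all genes), 1 for constant light in filtered air (Alas1, against 2.74%) and 2 for constant light in PM2.5 (Alas1 and Clpx, against 9.23%). The averages gave 3 for PM2.5 (Alad, Clpx and Hmox1, against 10%) and 1 for light (Clpx, against 5.66%), and the interaction 1 (Alas1, against 4.88%). Groups did not overlap in FPKM for 7 of 9 members for PM2.5 under the light/dark cycle, where 43.4% of all genes did not overlap; 3 lay above (24.6% of all genes) and 4 below (18.7%). In constant light it was 3 of 9 against 21.2%, with 0 above (9.65%) and 3 below (11.6%). Constant light in filtered air gave 2 of 9 against 21.9%, with 1 above (10.7%) and 1 below (11.3%), and in PM2.5 3 of 9 against 30.7%, with 0 above (12.3%) and 3 below (18.3%). Averaged over light, PM2.5 separated 1 of 9 against 3.4%, with 0 above (1.59%) and 1 below (1.81%). Light averaged over air separated 0 of 9 against 2.24%, above 0.68% and below 1.56%. These counts depend on the scaling. In CPM, Alad, Ppox and Fech also did not overlap for PM2.5 in constant light, nor Alad and Ppox for PM2.5 over both light regimes. For constant light, Clpx and Ppox in filtered air and Alad in PM2.5 also separated in CPM, while Urod in PM2.5 overlapped. The share of all genes was not counted in CPM. DESeq2 called 1 of 9 for PM2.5 under the light/dark cycle (1.33% of all genes) and 2 in constant light (0.513%), 1 for constant light in filtered air (0.38%) and 1 in PM2.5 (1.23%), and 1 and 0 for the averages over light (1.42%) and over air (0.813%). EdgeR with no filter on low values called 1 (2.81%), 2 (2.07%), 1 (0.873%), 1 (1.55%), 2 (3.02%) and 0 (1.26%) in the same order, and 1 for the interaction (1.04%), as DESeq2 did. The median log2 fold change of the members was -0.13 and -0.12 for PM2.5 under the light/dark cycle and in constant light, beside -0.01 and 0.00 over all tested genes.

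Of 18 other genes of heme synthesis and of heme or porphyrin transport, 0 passed the adjusted threshold by edgeR with the filter in any comparison. An unadjusted edgeR p under 0.05 was found for 2 with PM2.5 under the light/dark cycle and 2 in constant light. Of all genes 11% and 4.83% were under it. Flvcr2 was in both counts, and its place in the constant light count was shaped by the filter, as given below. The median log2 fold changes were -0.08 and -0.06. Flvcr2, a membrane transporter first described as a heme importer, was at 0.818 and 0.758 FPKM for LD-FA, 0.344 and 0.434 for LD-PM2.5, 0.55 and 0.594 for LL-FA and 1.06 and 1.08 for LL-PM2.5. It met the filter of 1 FPKM only through the 2 LL-PM2.5 libraries, where it was highest, so its filtered comparisons with that group had to differ and are not given. With PM2.5 in the light/dark cycle it stood at -1.05 ± 0.26 (unadjusted p = 0.00391, edgeR adjusted p = 0.416). EdgeR with no filter called it alone of the 18 for constant light in PM2.5 and for the interaction. The globin genes were ordered over the groups in the same way as Flvcr2 for PM2.5, and their part was not tested. Abcg2, an exporter of porphyrins, stood at 57.8 and 43.7 FPKM for LL-FA against 44.5 and 28.0 for LL-PM2.5 (-0.48 ± 0.16, unadjusted p = 0.0216).

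Among 8 genes of bilirubin formation and heme scavenging, 0 passed the adjusted threshold of edgeR with the filter. For PM2.5 in each light regime 1 had an unadjusted edgeR p under 0.05. Of all genes 11% were under it in the light/dark cycle and 4.83% in constant light. Cd163, the macrophage receptor for hemoglobin bound to haptoglobin, was at 3.44 and 2.99 FPKM for LD-FA against 4.68 and 5.91 for LD-PM2.5 (0.71 ± 0.20, unadjusted p = 0.00817). Blvrb, a biliverdin reductase, was at 122 and 160 FPKM for LL-FA against 111 and 83.5 for LL-PM2.5 (-0.46 ± 0.19, unadjusted p = 0.0452). Hp, the haptoglobin that captures free hemoglobin, was lower in all 4 constant light libraries, at 1394 to 1966 FPKM, than in the 4 light/dark libraries, at 2899 to 3825 (-0.95 ± 0.16, unadjusted p = 0.000478, edgeR adjusted p = 0.24). DESeq2 and edgeR with no filter called Hp for constant light in filtered air, in PM2.5 and averaged over air, and edgeR with no filter also called Cd163 for PM2.5 under the light/dark cycle.

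Of 14 known regulators of Alas1 or Hmox1, 0 passed the adjusted threshold by edgeR with the filter. For PM2.5 under the light/dark cycle 2 had an unadjusted edgeR p under 0.05, 1 in each direction, where 11% of all genes were under it. The lower gene was Npas2, whose place in this count was shaped by the filter, as given next. Npas2, a partner of BMAL1 known to act on Alas1, was at 1.17 and 1.41 FPKM for LD-FA, 0.413 and 0.0276 for LD-PM2.5, 0.544 and 0.469 for LL-FA and 0.113 and 0.0357 for LL-PM2.5. It met the filter only through the 2 LD-FA libraries, where it was highest, so its filtered comparisons with that group had to differ and are not given. For PM2.5 in constant light it stood at -2.74 ± 0.92 (unadjusted p = 0.0195, edgeR adjusted p = 0.989). EdgeR with no filter called it lower with PM2.5 in both light regimes. Nr1d1, the heme-binding repressor REV-ERBα, was at 22 and 20.1 FPKM for LD-FA, 52.5 and 5.55 for LD-PM2.5, 15.1 and 12.2 for LL-FA and 37.8 and 39.8 for LL-PM2.5. It overlapped with PM2.5 in the light/dark cycle and was higher without overlap in constant light (1.5 ± 0.80, unadjusted p = 0.102, edgeR adjusted p = 0.989), a comparison in which edgeR with no filter called it. Foxo1, an activator of Alas1 in fasting, was at 4.18 and 3.71 FPKM for LD-FA, 5.2 and 6.26 for LD-PM2.5, 4.69 and 3.99 for LL-FA and 4.56 and 3.09 for LL-PM2.5, with an interaction of -0.66 ± 0.25 (unadjusted p = 0.0294, edgeR adjusted p = 0.843). Ppargc1a, the coactivator PGC-1α, stayed between 0.855 and 1.4 FPKM. Bach1, the heme-sensitive repressor of Hmox1, was at 5.1 and 5.58 FPKM for LD-FA against 7.45 and 9.22 for LD-PM2.5 (0.58 ± 0.26, unadjusted p = 0.057). Nrf1, the transcript of NRF1, ranged from 2.06 to 3.2 FPKM. The part of these genes in the Alas1 and Hmox1 levels was not tested.

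The list of 20 hepatocyte hemoproteins, the users of heme, also held 0 genes past the adjusted threshold by edgeR with the filter. At an unadjusted edgeR p under 0.05 there was 1 for PM2.5 under the light/dark cycle (11% of all genes) and 1 in constant light (4.83%). Its median log2 fold change was -0.06 and -0.15, beside -0.01 and 0.00 over all tested genes, with 16 of 20 negative in constant light. The same gene, Cyp8b1 of bile acid synthesis, led both comparisons and was called in both by DESeq2 and by edgeR with no filter, at 332 and 290 FPKM for LD-FA, 152 and 131 for LD-PM2.5, 225 and 301 for LL-FA and 162 and 99.9 for LL-PM2.5. For constant light in filtered air 3 of 20 were under an unadjusted edgeR p of 0.05, all higher, where 2.74% of all genes were under it. They were Cyp26a1, which degrades retinoic acid, at a log2 fold change of 2.14 ± 0.32, and the fatty acid hydroxylases Cyp4a14 at 2.75 ± 0.94 and Cyp4a10 at 1.55 ± 0.66. EdgeR with no filter called all 3 there, and DESeq2 Cyp26a1. Among abundant heme users, Cyp2e1 ranged from 2099 to 4577 FPKM and catalase (Cat) from 1009 to 1441, both lowest in LL-PM2.5 replicate 2. That library was also lowest for Alas1 and Clpx, and for genes that are not heme users, such as Ugt1a1 at 150 FPKM and Abcg2 at 28.0. Cyp2e1 was highest in LL-PM2.5 replicate 1, where Alas1 stood at 62.0 FPKM. A tie of these levels to Alas1 was not tested. Cyp3a11 ranged from 1455 to 3422 FPKM and was lowest in LD-FA replicate 2.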

How the data were processed

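Liver RNA was sequenced in 8 libraries, 2 in each of 4 groups. Per the submitters' processing notes STAR, Cufflinks, Cuffdiff and mm10 were used; versions, options and annotation: not given in the sources used here. Per the file headers, the deposited values are each gene's fragments, an estimated count per library, and the FPKM that the authors scaled from them; 2 further value columns were not used. Genes with any status other than OK (47, with 1.07% of fragments) were left out. Identifiers were matched to symbols without version (48051 of 48432), and entries of equal symbol were added. Fragments were rounded to whole numbers (97.4% of values above 0 lay within 0.01 of one) and tested with edgeR 4.0.16 (quasi-likelihood, TMM, R 4.3.3) on the 11316 genes that reached 1 FPKM in 2 or more libraries, 4 group means and 4 residual degrees of freedom. P-values are two-sided, adjusted by Benjamini-Hochberg across all tested genes, with a threshold of 0.05. Standard errors were taken from the log2 fold change and the root of its F, with a median of 0.19 between groups of 2. The fit was tested on simulated data.

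Alternatives were DESeq2 1.42.0, limma 3.58.1 on log2(FPKM + 1) and log2(FPKM + 0.1), median-of-ratios scaling, no filter, a filter at 5 FPKM, a replicate block, only the groups compared, and leaving out libraries. Members and lists were chosen with earlier results of these data known. Named were the 9 members, with fold changes for Alas1 and Hmox1 in each comparison and for others with an unadjusted p under 0.05 or non-overlapping groups, and up to 4 genes of smallest p per other list; Ppargc1a, Nr1d1, Nrf1, Cyp2e1, Cyp3a11, Cat, Alas2 and the marker genes were named for their role or level after their values were seen. Genes most like Alas1 and Hmox1 were the 5 with a mean of at least 5 FPKM and the smallest root mean square difference of centred log2 CPM. Libraries of a group differed by more than sampling noise (chi-square 41.6 to 88.7 per degree of freedom) and each was counted as 1 sample. Gene positions are from GENCODE vM21 and promoters from RefSeq. Python 3.11.15 and matplotlib 3.10.9 were also used.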

Additional observations from a re-analysis of the deposited data

Results flagged for a closer look

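The effect of PM2.5 on Alas1 had opposite signs in the light regimes: both LD-PM2.5 libraries lay above both LD-FA libraries, and both LL-PM2.5 libraries below both LL-FA libraries. The difference was tested as the interaction of PM2.5 and light and was -3.26 ± 0.61 on the log2 scale, with an unadjusted p of 0.000833, an adjusted p of 0.843 in edgeR with the filter, of 9.01e-12 in edgeR without it and of 2.74e-07 in DESeq2. Over the leave-one-out fits it ran from -3.85 to -2.57. Opposite, non-overlapping effects of PM2.5 were seen in 2.81% of tested genes.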

How the results depend on the processing

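The count of members past the adjusted threshold was 0 in all 7 comparisons by edgeR with the filter and by limma with both pseudocounts, with median-of-ratios scaling, a filter at 5 FPKM and each library left out. Fitting only the groups compared, possible for the 4 pairwise comparisons, also gave 0. DESeq2 gave 1 for PM2.5 under the light/dark cycle (where it called 1.33% of all genes), 2 for PM2.5 in constant light (0.513%), 1 for constant light in filtered air (0.38%), 1 for constant light in PM2.5 (1.23%), 1 for PM2.5 averaged over light (1.42%) and 1 for the interaction (0.292%). EdgeR with no filter on low values gave 1 (2.81% of 23030 genes), 2 (2.07%), 1 (0.873%), 1 (1.55%), 2 (3.02%) and 1 (1.04%) in the same order, and the cause was not tested. Both gave 0 for constant light averaged over air. Of 433 refits of named fold changes 412 kept direction and side of the threshold, 15 passed it where the value as reported did not, and 6 changed sign, all for Hmox1. Constant light in PM2.5 gave Hmox1 -0.07, with -0.8 to 0.42 over the leave-one-out fits (0.3 if LD-PM2.5 replicate 2 was left out, 0.42 for LL-PM2.5 replicate 1). Averaged over air it gave -0.18, with -0.54 to 0.07 (0.02 and 0.07 without the same libraries), and the interaction gave 0.22, with -0.52 to 0.7 (-0.08 if LD-PM2.5 replicate 1 was left out, -0.52 for LL-PM2.5 replicate 2). A group left with 1 library was assumed to vary like the others. Deviations of same-numbered libraries in log2 CPM correlated, across genes, from -0.59 to 0.33 between groups, so no common pairing by replicate number was seen. Some members did follow the replicate number in FPKM. Clpx, Cpox and Fech were higher in replicate 1 of every group, and Alad and Hmox1 in replicate 2. With a replicate block 0 members passed in each comparison, and Alas1 stood at 1.93 ± 0.44 for PM2.5 under the light/dark cycle, -1.27 ± 0.45 in constant light and -3.2 ± 0.63 for the interaction. Hmox1 with the block was at 0.48 ± 0.27 for PM2.5 under the light/dark cycle and 0.66 ± 0.27 in constant light. Without it the standard errors were 0.38 and 0.39. With 2 libraries a group, and up to 13305 fragments per member, the spread between libraries rather than depth limits precision.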

Other observations

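Alas2, the erythroid form of aminolevulinate synthase (ENSMUSG00000025270.13, chromosome X, 150547375 to 150570638), was listed at 65.9 to 81.3 FPKM in the 8 libraries, and its ratio of highest to lowest library, 1.23, was smaller than in all but 3.82% of tested genes. The hemoglobin gene Hbb-bs, an mRNA of red cells, was at 102 and 45.2 FPKM for LD-FA, 25.5 and 29.8 for LD-PM2.5, 38.6 and 49.4 for LL-FA and 90.8 and 94.2 for LL-PM2.5, and Alas2 did not follow that order. The 4 globin genes are near-identical in pairs, and how reads were split between them is uncertain. The Alas2 level was 70.6 and 74.9 FPKM for LD-FA, 69.3 and 69.7 for LD-PM2.5, 65.9 and 81.3 for LL-FA and 70.8 and 71.7 for LL-PM2.5. Alas2 overlaps Apex2 (at most 3.54 FPKM) on the opposite strand.

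Of 6443 genes compared, those with library profiles nearest to that of Alas1 were Steap4, Serpina4-ps1, Nrep, Mbd1 and Slc25a30, with root mean square differences of 0.41, 0.42, 0.44, 0.53 and 0.54 on the log2 scale, where Alas1 itself varied by 0.93 about its mean. Steap4, a metalloreductase, stood at 40.4 and 34.1 FPKM for LD-FA, 106 and 98.9 for LD-PM2.5, 46.5 and 68.9 for LL-FA and 48.7 and 32 for LL-PM2.5. For Hmox1, which varied by 0.47, the nearest was Irf2bp2 at 0.09, a transcriptional co-repressor at 6.74 and 6.77 FPKM for LD-FA, 8.95 and 11.5 for LD-PM2.5, 4.81 and 5.7 for LL-FA and 5.66 and 11.1 for LL-PM2.5. It was followed by Xpo1, Cacybp and Nnmt at 0.23 each and Chordc1 at 0.25.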
